A study of Mus musculus with 27 samples.

Results

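The genes described are 8 that encode the MHC class II antigen presentation machinery of the mouse: the transactivator Ciita, the chain genes H2-Aa, H2-Ab1 and H2-Eb1, the peptide-loading genes H2-DMa, H2-DMb1 and H2-DMb2, and the invariant chain gene Cd74. They were chosen by gene symbol and are 8 of the 29872 genes in the count table. All 8 passed the filter on low counts, as did 14589 genes in all. Each is given as CPM, its read count per unit of TMM-scaled library size, across 27 poly(A) RNA-seq libraries in 8 groups.

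The libraries were made from bone marrow-derived macrophages of male mice 8 to 10 weeks old, grown for 5 days in medium with 20% serum and 10% L-cell conditioned medium. Cells were then given vehicle or, for 24 h, 10 ng/ml of the cytokine IL4, 500 nM corticosterone or 100 nM dexamethasone. The latter pair are a natural and a synthetic glucocorticoid. No time is given for vehicle. The labels give the genotype of both lines as C57BL/6, LysM-Cre+/+, with GRIP1wt/wt in wild type and GRIP1fl/fl in the line here called knockout, while the sample titles call the wild type BL6. LysM-Cre puts the recombinase under the Lyz2 locus, which is active in macrophages and neutrophils. GRIP1, the product of Ncoa2, is recruited to DNA by the glucocorticoid receptor, among other factors, and serves as its coregulator. There were 3 libraries in every group of wild type, 3 in knockout with IL4 (numbered 1, 2 and 4) and 4 in the remaining knockout groups. Nothing in the labels states that these are separate animals, and the p-values therefore cover only the spread among these libraries, which may be technical.

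MHC class II molecules carry peptides from endosomes to the cell surface, where CD4+ T cells read them. The α and β chains assemble with the invariant chain, which fills the groove until proteases remove it and the DM heterodimer helps exchange the remaining fragment for a peptide. CIITA does not bind DNA itself but joins RFX, CREB and NF-Y proteins already seated on the X and Y boxes of class II promoters, and its own transcription is the step that sets class II expression in most cells. Macrophages make little class II until a cytokine such as interferon-γ or IL4 raises it.

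The arrangement of boxes is visible in RefSeq promoter sequences (build GRCm38.p6, 250 bases before to 50 after each start), which were matched for H2-Aa, H2-Eb1, H2-DMa (with 2 starts), H2-DMb1 and H2-DMb2. Ciita, H2-Ab1 and Cd74 were not matched. The stretches below are shown because they carry the pattern shared by 4 of these genes. Capitals mark AAC, in the place of the X box, and ATTGG, the reverse complement of the Y box core CCAAT. They come from chr17:34287857-34287912 (minus strand), chr17:34305768-34305822, chr17:34153089-34153144 and chr17:34145118-34145173 (plus strand) in the order given.
H2-Aa: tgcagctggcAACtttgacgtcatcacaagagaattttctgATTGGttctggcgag
H2-Eb1: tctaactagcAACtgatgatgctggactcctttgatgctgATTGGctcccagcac
H2-DMb1: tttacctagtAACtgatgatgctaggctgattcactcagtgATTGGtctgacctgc
H2-DMb2: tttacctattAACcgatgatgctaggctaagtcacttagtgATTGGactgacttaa

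The AAC began 79 bases before the start in H2-Aa, 89 in H2-Eb1, 92 in H2-DMb1 and 121 in H2-DMb2. AAC followed after 27 or 28 bases by ATTGG, searched on both strands, was found in 427 of 32851 promoters (1.30%). This pattern was set after these promoters had been looked at. It was not found in either H2-DMa window. The first of these, chr17:34122582-34122881, holds the 5′ end of the antisense gene Brd2 (34122634). The second ends at 34125567, while H2-DMa runs on to 34139101. No window nearer to that end was searched, so the absence does not cover a start there. CCAAT alone, on either strand, was in 37.4% of promoters. TTC and GAA with 3 bases between them, the core of a STAT site, were in 8.30% of promoters and in that of H2-DMb2 only among the matched genes. The same letters with 4 bases between them were in 6.95% and in none of these windows. A glucocorticoid receptor palindrome (GNACA, then 3 bases, then its reverse complement) was in 0.475% and in none of these windows.

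Ciita lies on chromosome 16 (10480059 to 10528418, plus strand, GRCm38). The H2 genes lie within the MHC on chromosome 17: H2-DMa from 34119541 to 34139101, H2-DMb2 from 34143307 to 34151555, H2-DMb1 from 34153072 to 34160230, H2-Ab1 from 34257689 to 34269419, H2-Aa from 34282744 to 34287823 on the minus strand and H2-Eb1 from 34305867 to 34316674. Cd74 lies on chromosome 18 (60803848 to 60812652). Each value is the sum over the annotated exons of a protein-coding gene.

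Ncoa2 itself lay at 55.7 to 93.4 CPM in the wild-type libraries and at 16.1 to 26.0 CPM in the knockout libraries, with no overlap. Library totals ran from 20162729 to 48023102 counts. Summed levels of 7 macrophage markers (Adgre1, Csf1r, Cd68, Itgam, Fcgr1, Mertk and Lyz2) were 5230 to 6600 CPM over all libraries, and all groups overlapped the wild-type vehicle range of 5470 to 6310 CPM. Adgre1, Csf1r and Cd68 carried most of this sum, and it hides single markers that moved. Mean Fcgr1 was 161 CPM in wild-type vehicle, 50.8 in wild-type IL4 and 103 in knockout vehicle libraries. Mean Mertk in wild type was 137 CPM with vehicle, 348 with corticosterone and 395 with dexamethasone. None of these groups overlapped the wild-type vehicle libraries. The summed level of 5 stromal markers was 150 to 761 CPM in wild-type libraries and 8.32 to 38.6 CPM in knockout libraries, and that of 5 neutrophil markers was 40.5 to 286 against 4.72 to 16.0 CPM. These markers move with genotype, and their part in the genotype comparisons was not tested. In the knockout vehicle group the libraries numbered 2 and 3, in the wild-type dexamethasone group number 1 and in the knockout dexamethasone group number 2 stood apart from the rest of their groups in Arg1, an IL4 target. Some of the results that use these libraries are given with and without them.

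Of the 8 genes, Ciita had the widest range over the libraries and H2-DMb2 the narrowest. The highest library of Ciita was 241-fold above the lowest, against 11.9-fold for H2-Eb1, 8.62-fold for H2-Ab1, 7.93-fold for H2-Aa, 7.43-fold for H2-DMa, 4.27-fold for Cd74, 4.25-fold for H2-DMb1 and 2.15-fold for H2-DMb2. The lowest Ciita library, at 0.111 CPM, was of the wild-type dexamethasone group, which held 15 reads of Ciita in all. The size of the Ciita range therefore rests on few reads. For every one of the 8, the knockout IL4 group had the highest mean and the wild-type IL4 group the next. The knockout vehicle group came next for all but H2-DMb2.

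**Figure D1:**
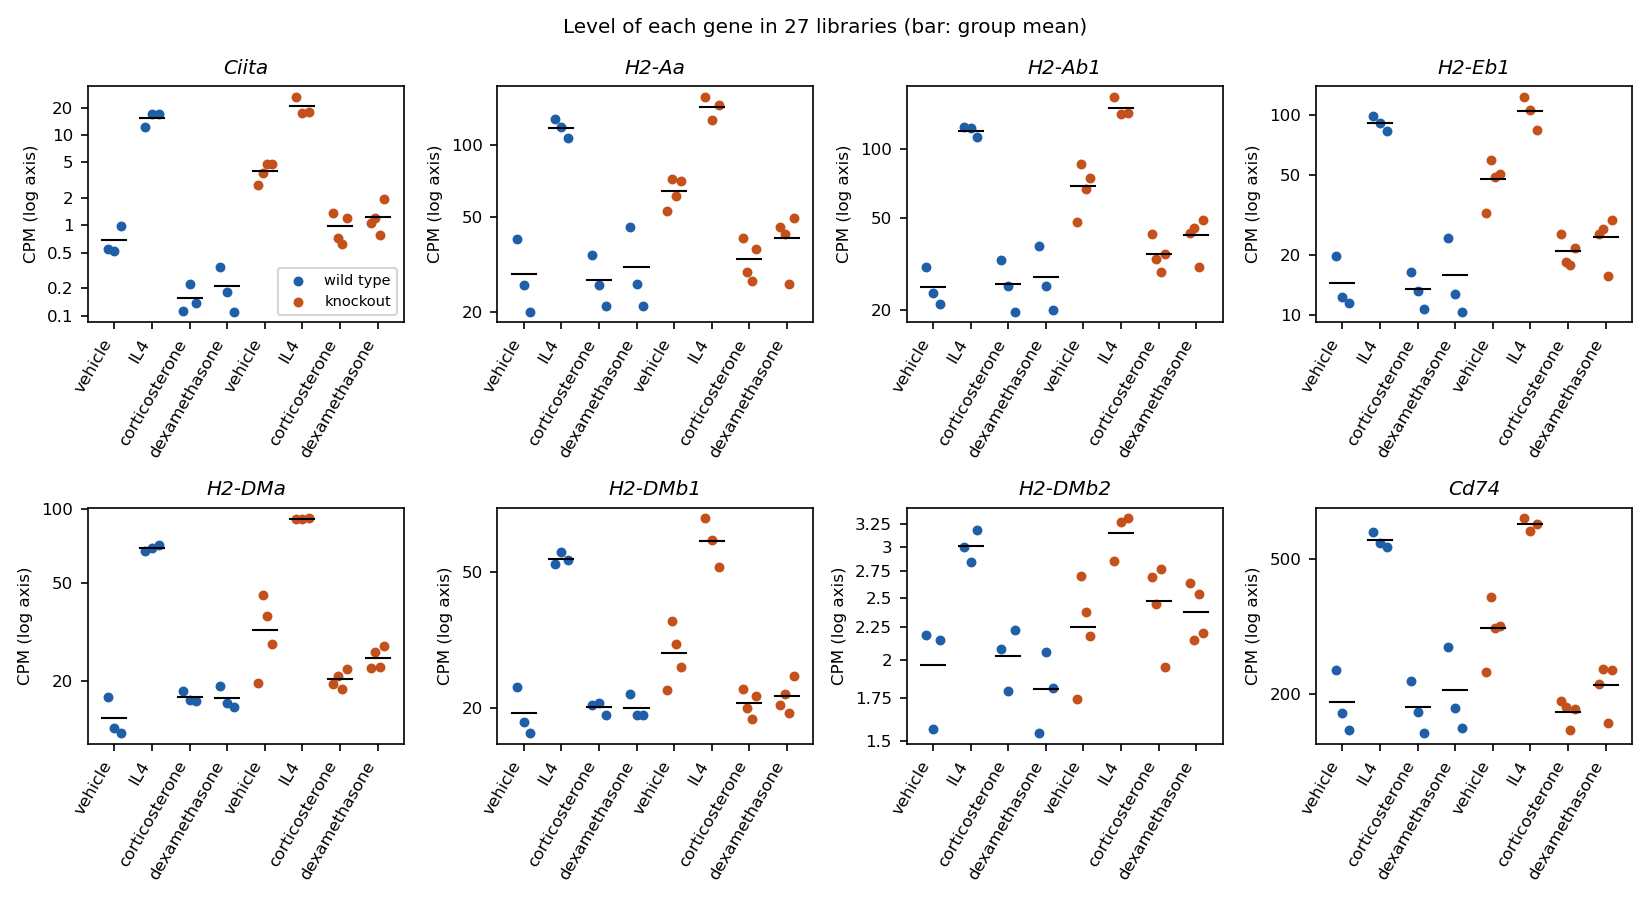
CPM of each of the 8 genes (log axes) in every library by treatment, wild type in blue and knockout in orange, with a bar at the group mean. The IL4 libraries are highest in each panel, and the knockout vehicle libraries of Ciita, at 2.83 to 4.85 CPM, lie above the wild-type vehicle libraries, at 0.521 to 0.991 CPM.

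Scaled to the length of exon, Cd74 was the most abundant transcript in each of the 8 groups. Ciita was the least in all but the knockout IL4 group, where it stood at 2.19 ± 0.533 CPM per kb (SD, n = 3) and H2-DMb2 at 1.80 ± 0.15. In the wild-type IL4 group Ciita, at 1.64 ± 0.293, and H2-DMb2, at 1.72 ± 0.0956, did not differ beyond their spread. In wild-type vehicle libraries Cd74 stood at 113 ± 24.4 CPM per kb (SD, n = 3), H2-DMb1 at 11.5 ± 1.93, H2-Ab1 at 9.83 ± 1.93, H2-Aa at 7.60 ± 2.76, H2-Eb1 at 7.46 ± 2.31, H2-DMa at 4.11 ± 0.788, H2-DMb2 at 1.13 ± 0.201 and Ciita at 0.0720 ± 0.0277. With IL4 the order among the chain genes changed in wild type, with H2-Ab1 at 46.9 ± 2.62 and H2-Eb1 at 46.8 ± 4.09 CPM per kb, above H2-DMb1 at 32.6 ± 1.29 and H2-Aa at 31.1 ± 2.79.

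IL4 raised all 8 genes in wild-type macrophages, against 14.8% of all genes tested that rose. Ciita rose most. Its level was 0.547, 0.521 and 0.991 CPM in the wild-type vehicle libraries numbered 1, 2 and 3, and 12.5, 17.3 and 17.2 CPM with IL4. Every IL4 library was above every vehicle library, with means of 15.7 ± 2.80 and 0.686 ± 0.264 CPM (SD, n = 3) and a fitted log2 fold change of 4.51 ± 0.335 (SE; adjusted p = 1.46e-09 by edgeR's quasi-likelihood test, as for all adjusted p-values below). The 3 vehicle libraries together held 61 reads of Ciita and the 3 IL4 libraries 1267.

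The genes of the presented chains rose as well. H2-Ab1, the β chain of I-A, was at 30.8, 23.6 and 21.3 CPM with vehicle and at 125, 124 and 113 CPM with IL4 in wild type (log2 fold change 2.26 ± 0.226, adjusted p = 1.56e-07). The groups did not overlap. H2-Eb1, the β chain of I-E, rose from 14.5 ± 4.49 to 91.0 ± 7.96 CPM, a log2 fold change of 2.65 ± 0.280 (adjusted p = 4.16e-07). H2-Aa, the α chain of I-A, rose from 28.9 to 118 CPM, a log2 fold change of 2.03 ± 0.266 (adjusted p = 5.77e-06). In C57BL/6 mice I-E is not displayed, because the α chain gene H2-Ea carries a deletion, so H2-Eb1 transcript does not stand for a surface molecule in this strain.

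Among the loading genes, H2-DMa, the α chain of DM, was at 17.3, 12.9 and 12.3 CPM with vehicle and at 67.5, 69.2 and 71.7 CPM with IL4 in wild type (log2 fold change 2.30 ± 0.180, adjusted p = 4.04e-09). H2-DMb1, one of the 2 genes of the DM β chain, rose from 19.4 to 54.7 CPM (1.499 ± 0.140, adjusted p = 3.21e-08). H2-DMb2, the other, was at 2.19, 1.56 and 2.15 CPM with vehicle and at 3.002, 2.85 and 3.18 CPM with IL4, and its rise was the smallest of the 8 (0.616 ± 0.171, adjusted p = 0.00745). That call was lost without the wild-type vehicle library numbered 2 (adjusted p = 0.0638).

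Cd74, the invariant chain, was at 235, 177 and 157 CPM with vehicle and at 600, 557 and 542 CPM with IL4 in wild type. It was the most abundant of the 8 and its log2 fold change of 1.58 ± 0.188 (adjusted p = 1.21e-06) was below those of the 3 chain genes. The median log2 fold change of the 8 genes was 2.14, and that of all genes tested −0.0121.

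In knockout macrophages IL4 again raised all 8 genes (background 14.5% of genes that rose), from a higher vehicle level. Ciita stood at 2.83, 3.77, 4.85 and 4.80 CPM in the vehicle libraries and at 26.8, 17.7 and 18.3 CPM in the IL4 libraries numbered 1, 2 and 4, a log2 fold change of 2.35 ± 0.251 (adjusted p = 4.87e-07). H2-Ab1 stood at 48.4, 86.4, 66.9 and 75.3 CPM with vehicle and at 169, 143 and 143 CPM with IL4 (1.13 ± 0.206, adjusted p = 0.000291). H2-DMa rose by 1.49 ± 0.162 on the log2 scale, from 19.6, 44.8, 36.7 and 28.4 CPM to 91.0, 91.0 and 91.7 CPM. None of these groups overlapped. H2-DMb2 rose least, by 0.480 ± 0.158 (adjusted p = 0.0263), and its call was lost without the vehicle library numbered 1 (adjusted p = 0.0910) or 4 (0.0577), without the IL4 library numbered 2 (0.0794) or 4 (0.0897), with no filter on low counts (0.0891) and when the fit held only the groups compared (0.127). The median over the 8 genes was 1.13, against 0.00538 over all genes.

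**Figure D2:**
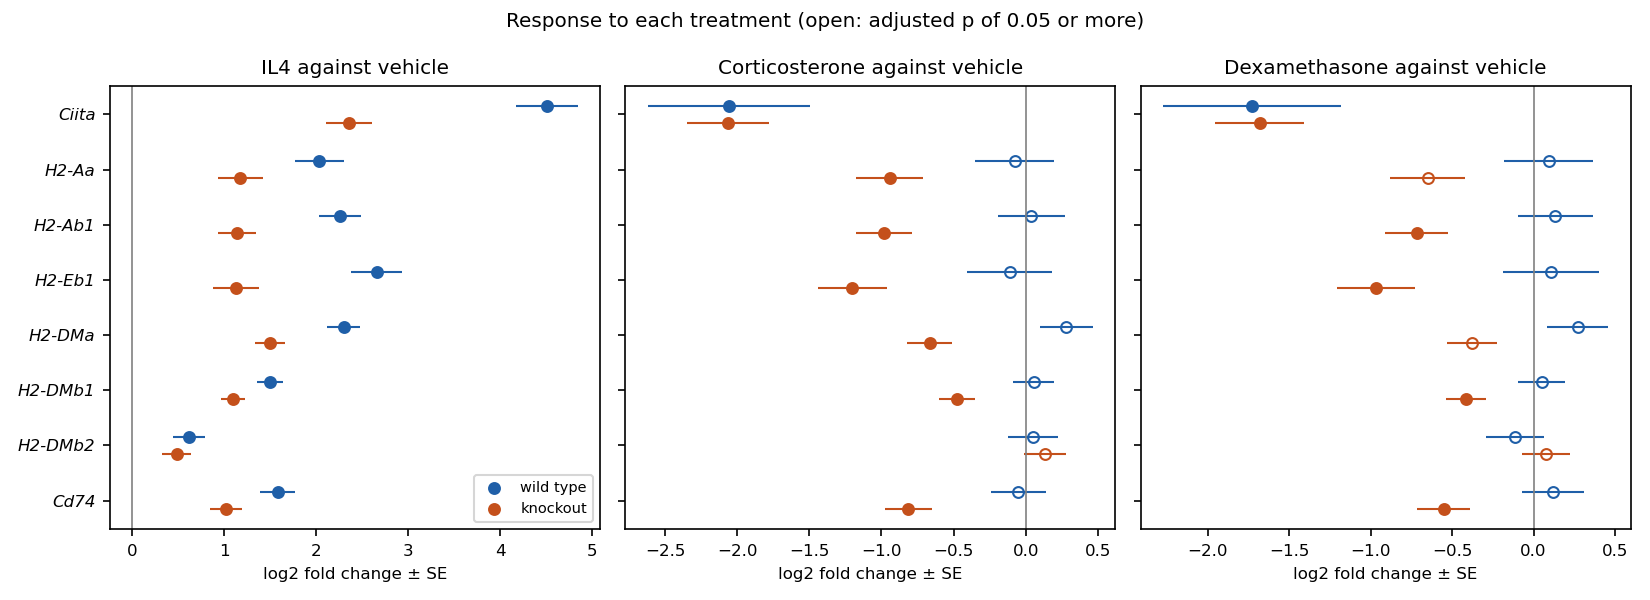
Fitted log2 fold change ± SE of each gene for each treatment against vehicle, in wild type (blue) and knockout (orange), with open points where the adjusted p was 0.05 or more. All points of the IL4 panel are filled and to the right of 0, and in the glucocorticoid panels Ciita is the only filled wild-type point.

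The IL4 response was smaller in knockout than in wild type for all 8 genes as fitted, but the difference itself did not pass the threshold for any of them in the fit of 8 group means. At an unadjusted p under 0.05 there were 7 such genes, where 9.07% of all genes passed, and DESeq2 called 3, where it called 0.535% of all genes. Ciita's response differed by −2.16 ± 0.419 on the log2 scale (adjusted p = 0.0663), that of H2-Eb1 by −1.53 ± 0.377 (0.186) and that of H2-Ab1 by −1.12 ± 0.306 (0.223). Of all genes tested, 0.0274% were called in this comparison by the adjusted p. With the replicate number as a block, which the pairing check allowed here, 4 of the 8 were called, against 1.02% of all genes: Ciita at −2.21 (adjusted p = 0.0135), H2-Eb1 at −1.66 (0.0273), H2-Ab1 at −1.22 (0.0316) and H2-Aa at −1.04 (0.0402). Without the knockout vehicle library numbered 1, the lowest of its group in all 8 genes, Ciita, H2-Ab1, H2-Eb1 and H2-DMa were called, against 0.651% of all genes. Without the IL4 library numbered 1 of either genotype, Ciita alone of the 8 was called, where 0.0608% of all genes were called without the wild-type library and 0.0540% without the knockout one. Without the Arg1-high libraries none was, with Ciita at −2.09 (adjusted p = 0.276). Over all alternatives the adjusted p of Ciita ran from 0.00153, by DESeq2, to that value. The value of H2-DMb2, −0.136 as fitted, turned to 0.0304 without the Arg1-high libraries and to 0.00845 without the wild-type vehicle library numbered 2.

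Under IL4, knockout and wild-type libraries did not differ beyond the threshold in any of the 8 genes, where 5.76% of all genes were higher in knockout. H2-DMa alone had an unadjusted p under 0.05 (0.0323, adjusted 0.139), where 15.2% of all genes were higher by that rule. DESeq2 called 0 of the 8 and 5.78% of all genes as higher. For Ciita under IL4 the knockout was at 20.9 ± 5.08 and the wild type at 15.7 ± 2.80 CPM, a log2 difference of 0.416 with a 95% interval from −0.121 to 0.953. For H2-Ab1 the interval ran from −0.121 to 0.789 and for Cd74 from −0.233 to 0.545.

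With vehicle, 7 of the 8 genes were higher in knockout than in wild type, where 8.47% of all genes tested were higher. Ciita was at 4.06 ± 0.962 CPM (SD, n = 4) in knockout and 0.686 ± 0.264 CPM in wild type, a log2 difference of 2.57 ± 0.328 (adjusted p = 5.72e-06). H2-Eb1 followed with 1.73 ± 0.265 (adjusted p = 0.000131), H2-Ab1 with 1.46 ± 0.213 (7.23e-05), H2-DMa with 1.20 ± 0.170 (4.29e-05) and H2-Aa with 1.16 ± 0.251 (0.00253). Cd74 was at 232, 385, 314 and 318 CPM in knockout against 235, 177 and 157 CPM in wild type (0.721 ± 0.176, adjusted p = 0.00578). The Cd74 library numbered 1 of the knockout lay below the highest wild-type library. H2-DMb1 was higher by 0.579 ± 0.133 (adjusted p = 0.00306), and H2-DMb2 did not pass (0.198 ± 0.161, adjusted p = 0.472). The median of the 8 genes was 1.18, and that of all genes 0.0174.

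Without the 4 libraries high in Arg1, of which 2 are knockout vehicle libraries, 6 of the 8 genes stayed called with vehicle and H2-DMb1 did not (0.333, adjusted p = 0.136). Ciita was then higher in knockout by 2.48 (adjusted p = 0.000273), H2-Ab1 by 1.29 (0.00136), H2-DMa by 0.764 (0.00154) and Cd74 by 0.535 (0.0484). H2-DMb1 was also not called when only the groups compared entered the fit (0.572, adjusted p = 0.0673). Within the knockout vehicle group, the Arg1-high libraries numbered 2 and 3 had the highest H2-DMa, at 44.8 and 36.7 CPM, against 19.6 and 28.4 CPM in numbers 1 and 4. In Ciita they did not stand apart, at 3.77 and 4.85 CPM against 2.83 and 4.80. Bulk libraries cannot tell more RNA per cell from more cells that make it.

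**Figure D3:**
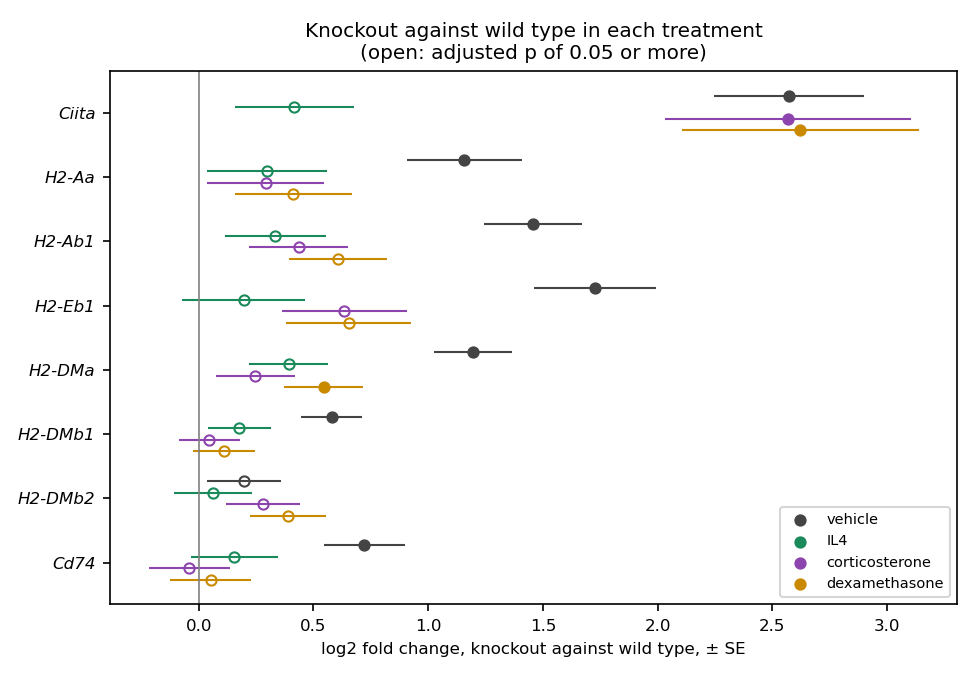
Fitted log2 fold change ± SE of knockout against wild type for each gene under each of the 4 treatments, open where the adjusted p was 0.05 or more. The vehicle points lie to the right of the others for all genes but Ciita and H2-DMb2, and the Ciita points under vehicle, corticosterone and dexamethasone lie between 2.57 and 2.62.

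The glucocorticoids lowered Ciita in wild type, and no other of the 8 genes passed. Ciita was at 0.113, 0.224 and 0.137 CPM with corticosterone and at 0.348, 0.184 and 0.111 CPM with dexamethasone, below all 3 vehicle libraries (0.521 to 0.991 CPM). The 3 corticosterone libraries together held 14 reads and the 3 dexamethasone libraries 15. The fitted log2 fold changes were −2.06 ± 0.561 (adjusted p = 0.0146) for corticosterone and −1.73 ± 0.547 (0.0236) for dexamethasone, in comparisons where 2.46% and 6.03% of all genes fell. These calls rest on few reads. The corticosterone call was lost without the vehicle library numbered 3 (adjusted p = 0.110) or the corticosterone library numbered 1 (0.0688) or 3 (0.0741) and in edgeR's default fit (0.0773). The dexamethasone call was lost without the vehicle library numbered 3 (0.141) or the dexamethasone library numbered 2 (0.0932) or 3 (0.141), with no filter (0.0647), in edgeR's default fit (0.0949) and with only the groups compared (0.0681).

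The wild-type chain and loading genes did not separate from vehicle. H2-Ab1 was at 32.8, 25.3 and 19.6 CPM with corticosterone and at 38.0, 25.5 and 20.0 CPM with dexamethasone, overlapping the vehicle libraries at 30.8, 23.6 and 21.3. The log2 fold change was 0.04 with a 95% interval from −0.442 to 0.518 for corticosterone, and 0.13 with an interval from −0.348 to 0.615 for dexamethasone. For Cd74 the intervals were −0.442 to 0.340 and −0.273 to 0.510, and for H2-DMa −0.101 to 0.665 and −0.114 to 0.658. All 7 genes other than Ciita overlapped between vehicle and each glucocorticoid in wild type. The share of all genes that overlap in this way was not counted.

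In knockout macrophages corticosterone lowered 7 of the 8 genes, all but H2-DMb2, where 6.07% of all genes fell. Ciita was at 1.37, 0.735, 0.620 and 1.20 CPM, below all 4 vehicle libraries (2.83 to 4.85 CPM), with a log2 fold change of −2.06 ± 0.283 (adjusted p = 1.72e-05). H2-Ab1 was at 42.7, 33.3, 29.3 and 34.8 CPM, below all vehicle libraries (48.4 to 86.4 CPM), with −0.984 ± 0.195 (adjusted p = 0.00144). H2-Eb1 fell by 1.20 ± 0.241 (0.00170), H2-Aa by 0.943 ± 0.231 (0.00862), Cd74 by 0.813 ± 0.163 (0.00155), H2-DMa by 0.666 ± 0.155 (0.00516) and H2-DMb1 by 0.478 ± 0.123 (0.0104). The median over the 8 genes was −0.878, against −0.0011 over all genes. Without the Arg1-high libraries the calls of H2-DMa (adjusted p = 0.348) and H2-DMb1 (0.363) were lost. With only the groups compared, that of H2-DMa was lost (0.0817).

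Dexamethasone lowered 5 of the 8 in knockout, where 9.29% of all genes fell. Ciita was at 1.06, 1.22, 0.784 and 1.96 CPM (−1.68 ± 0.273, adjusted p = 7.54e-05). H2-Eb1 fell by 0.966 ± 0.240 (adjusted p = 0.00635), H2-Ab1 by 0.717 ± 0.194 (0.0114), Cd74 by 0.551 ± 0.163 (0.0197) and H2-DMb1 by 0.417 ± 0.123 (0.0178). H2-Aa had a log2 fold change of −0.651 ± 0.23 (adjusted p = 0.0537) and H2-DMa one of −0.379 ± 0.154 (0.0954), and neither passed. The median was −0.601. Without the Arg1-high libraries only Ciita was called, with H2-Eb1 at −0.817 (adjusted p = 0.0550) and H2-Ab1 at −0.600 (0.0944). Without the dexamethasone library numbered 3, Ciita and H2-Eb1 were called and H2-Ab1 (0.0513), H2-DMb1 (0.0691) and Cd74 (0.0835) were not, and without the vehicle library numbered 2, 3 were called. Doses of the 2 glucocorticoids differ, so their values stand side by side here without a test between them.

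Between genotypes under glucocorticoid, Ciita was higher in knockout with either hormone. With corticosterone, Ciita was higher in knockout by 2.57 ± 0.536 (adjusted p = 0.000526) and was the only 1 of the 8 called, where 5.46% of all genes were higher. With dexamethasone, Ciita (2.62 ± 0.516, adjusted p = 0.00027) and H2-DMa (0.544 ± 0.172, 0.0322) were called, where 6.70% of all genes were higher. The H2-DMa call was lost without the wild-type dexamethasone library numbered 2 (0.107) or 3 (0.116), the knockout library numbered 2 (0.0636) or 4 (0.0882), or the filter (0.0751). Without the Arg1-high libraries H2-Ab1 (0.855, adjusted p = 0.0300) and H2-Eb1 (1.03, 0.0333) were called as well. Cd74 differed by −0.04 with corticosterone (95% interval −0.407 to 0.325) and by 0.05 with dexamethasone (−0.315 to 0.418).

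Whether the glucocorticoid response differed between genotypes was tested directly, with the vehicle libraries shared by both such tests and by the IL4 test. None of the 8 genes passed for corticosterone (6 at an unadjusted p under 0.05, 1 by DESeq2) or for dexamethasone (6 and 0). Of all genes, 0.0206% and 0.185% were called by the adjusted p, 6.35% and 6.03% passed unadjusted, and DESeq2 called 0.548% and 0.555%. The 6 were the same genes in both, all but Ciita and H2-DMb2. For H2-Ab1 the response in knockout was lower by 1.02 ± 0.303 on the log2 scale for corticosterone (adjusted p = 0.250) and by 0.850 ± 0.303 for dexamethasone (0.475). For Ciita the fitted responses differed by −0.00348 ± 0.628 and 0.0488 ± 0.611, with 95% intervals from −1.30 to 1.30 and −1.22 to 1.31. Without the knockout vehicle library numbered 1, H2-DMa was called for corticosterone (−1.12, adjusted p = 0.00633).

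Across the 27 libraries Ciita and the chain genes were correlated. In wild type, however, the glucocorticoids lowered Ciita while none of the chain genes was called. Pearson's r of log2 CPM was 0.949 between Ciita and H2-Ab1 and 0.532 once each group's mean was taken out, 0.995 and 0.961 between H2-Ab1 and H2-Eb1, and 0.968 and 0.962 between H2-Ab1 and Cd74. H2-DMb2 had an r of 0.708 with Ciita over all libraries and of −0.192 within groups. The libraries share treatments and genotypes, so these are descriptions. In wild type, vehicle and glucocorticoid libraries ran from 0.111 to 0.991 CPM of Ciita with H2-Ab1 between 19.6 and 38.0 CPM.

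**Figure D4:**
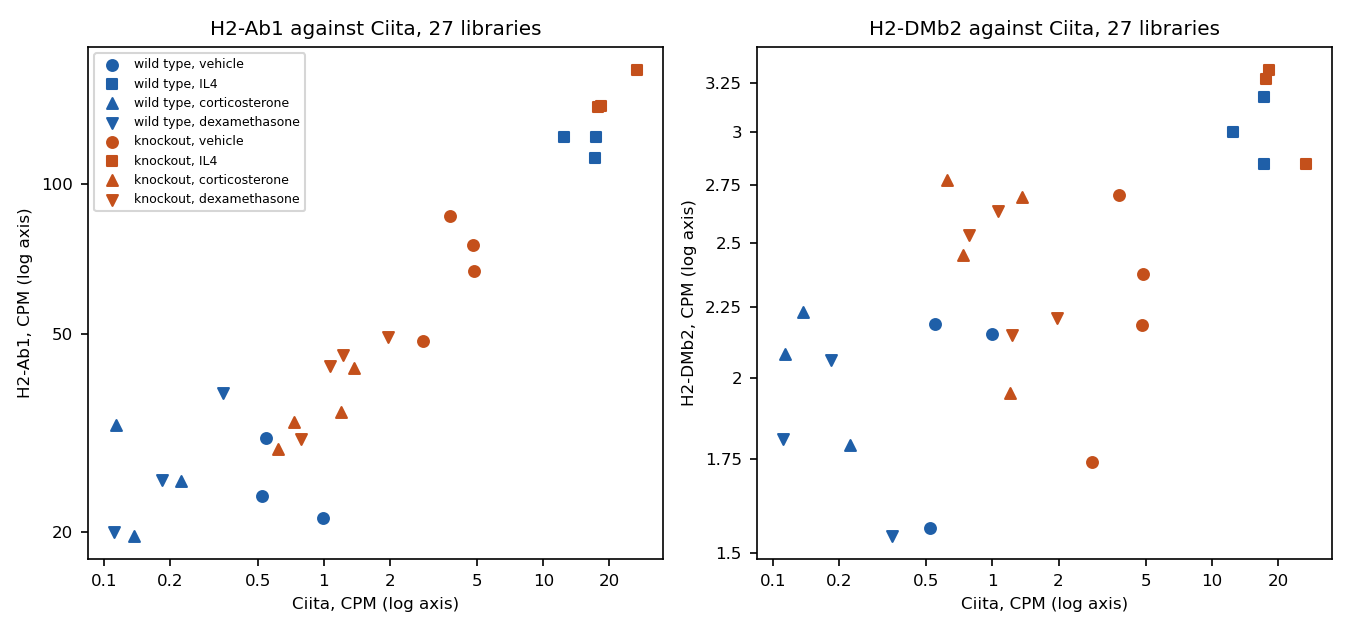
H2-Ab1 (left) and H2-DMb2 (right) against Ciita in CPM on log axes, 1 point for each of 27 libraries, coloured by genotype and shaped by treatment. H2-Ab1 climbs with Ciita from the knockout glucocorticoid libraries to the IL4 libraries, while H2-DMb2 stays between 1.54 and 3.32 CPM.

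Ratios within a library separated the genes further. Cd74 over H2-Ab1, per kb of exon, was 11.5 ± 0.21 in wild-type vehicle libraries, 10.9 ± 0.93 with corticosterone and 11.4 ± 0.67 with dexamethasone, and 7.19 ± 0.29 with IL4. In knockout it was 6.95 ± 0.39 with vehicle, 7.84 ± 0.71 with corticosterone, 7.78 ± 0.38 with dexamethasone and 6.38 ± 0.42 with IL4. Every knockout library, at 8.43 or less, was below every wild-type library that had not received IL4, at 10.2 or more. H2-DMa over H2-DMb1 was 0.356 ± 0.010 in wild-type vehicle libraries and 0.620 ± 0.027 with IL4, and 0.534 ± 0.081 and 0.733 ± 0.12 in knockout. H2-Aa over H2-Ab1 moved less, with group means from 0.640 to 0.757. No test was run on these ratios.

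**Figure D5:**
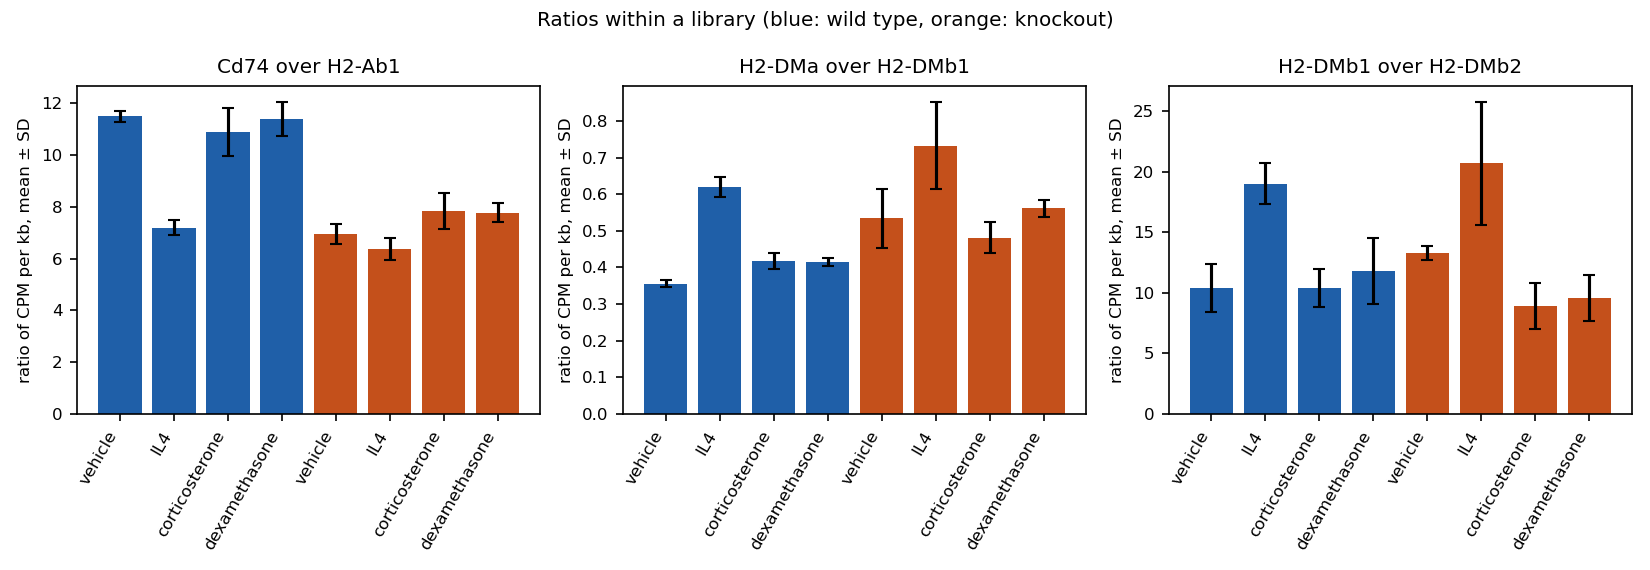
Ratio of CPM per kb of exon between pairs of genes, mean ± SD over the libraries of each group, wild type in blue and knockout in orange. Cd74 over H2-Ab1 is between 10.9 and 11.5 in the wild-type groups without IL4 and between 6.38 and 7.84 in the other groups.

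H2-DMb1 and H2-DMb2 are neighbouring copies, and reads they share may be split or dropped. Their transcripts were 96.0% identical over 1045 aligned bases, and 27.2% of the 50-base windows of H2-DMb1 were found unchanged in H2-DMb2. H2-DMb1 exceeded H2-DMb2 per kb by 8.95- to 20.7-fold in the group means. Counted together, the pair rose with IL4 by 1.44 ± 0.131 in wild type and 1.06 ± 0.121 in knockout, and was higher in knockout vehicle libraries by 0.548 ± 0.124 (adjusted p = 0.00280). The exons of Ciita share 329 bases with the antisense gene Dexi and those of H2-DMa share 360 bases with the antisense gene Brd2, and the sources used here do not state which strand setting the counting used, so reads of such pairs may not be told apart. Dexi had group means from 9.77 to 12.3 CPM and Brd2 from 305 to 361 CPM.

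Among the genes of proteins that CIITA works through, 1 of 7 promoter factors and 1 of 7 coactivators rose with IL4 in wild type. Another 1 of each fell. Of all genes, 14.8% rose and 15.3% fell. Of 7 promoter factors (Rfx5, Rfxap, Rfxank, Nfya, Nfyb, Nfyc and Creb1), IL4 raised Nfya (0.444 ± 0.0645, adjusted p = 9.9e-06) and lowered Nfyb (−0.384 ± 0.0813, 0.000733) in wild type, and in knockout Nfya rose by 0.345 and Nfyb fell by 0.273. These are subunits of NF-Y, which binds the Y box. Rfx5, whose loss leaves cells without class II, was at 9.79 ± 1.31 CPM with vehicle and 10.5 ± 0.367 with IL4. With glucocorticoids, Nfya fell in knockout (−0.181 ± 0.0559 with corticosterone, adjusted p = 0.0341, and −0.198 ± 0.0559 with dexamethasone, 0.0137). Rfxank rose with dexamethasone in wild type (0.291 ± 0.0877, adjusted p = 0.0272). None of the 7 promoter factors was called between genotypes under any treatment, where 5.46% to 8.47% of all genes were called higher in knockout. That does not show equal levels. For example, mean Creb1 under IL4 was 63.1 CPM in knockout and 53.3 in wild type. Mean Nfyc under dexamethasone was 20.8 CPM in knockout and 23.4 in wild type. In both cases the libraries of the genotypes did not overlap. Of 7 CIITA coactivators, Crebbp rose with IL4 in both genotypes (0.511 ± 0.126 and 0.572 ± 0.117).

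Some regulators of Ciita changed with treatment. Of 15, 6 rose and 3 fell with IL4 in wild type, where 14.8% of all genes rose and 15.3% fell, and 5 rose and 4 fell in knockout, where 14.5% rose and 12.0% fell. The median of the list was −0.0484 in wild type and 0.015 in knockout, against −0.0121 and 0.00538 over all genes. Irf4, an IL4-induced transcription factor, rose from 0.898 ± 0.247 to 38.2 ± 6.57 CPM in wild type (5.42 ± 0.423, adjusted p = 3.68e-09) and from 3.37 ± 2.36 to 38.1 ± 7.42 CPM in knockout (3.49 ± 0.318, 1.08e-07). Jak2, a kinase of the interferon-γ receptor, rose by 2.18 ± 0.244 and 1.55 ± 0.225. Between genotypes with vehicle, Irf4 (1.92 ± 0.424, adjusted p = 0.00182) and Jak2 (0.933 ± 0.229, 0.00648) were higher in knockout, and Il4ra, the IL4 receptor chain, was lower (−0.308 ± 0.0887, 0.0152). Without the Arg1-high libraries none of these 3 calls held, with Irf4 at 0.672 (adjusted p = 0.156), Jak2 at 0.476 (0.0632) and Il4ra at −0.327 (0.0687). Stat6, the factor that carries the IL4 signal, was at 287 ± 14.6 CPM in wild-type and 286 ± 15.4 CPM in knockout vehicle libraries.

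Glucocorticoids lowered Prdm1, which encodes the Ciita repressor BLIMP1, in all 4 comparisons (in wild type by 0.814 ± 0.134 with corticosterone and 1.06 ± 0.137 with dexamethasone), and lowered Ifngr2, a chain of the interferon-γ receptor, in all 4. They raised Il4ra in all 4. With corticosterone in knockout, Irf4 fell by 1.81 ± 0.386 (adjusted p = 0.00195), from 3.37 ± 2.36 to 0.953 ± 0.218 CPM, and was at −0.581 (adjusted p = 0.294) without the Arg1-high libraries. Prdm1 was higher in knockout with IL4 (0.512 ± 0.131), corticosterone (0.472 ± 0.127) and dexamethasone (0.645 ± 0.130).

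Genes that prepare and turn over class II molecules had other patterns. Of 9 endosomal processing genes, IL4 raised Ifi30, a thiol reductase of antigen, in wild type (0.890 ± 0.0987, adjusted p = 2.84e-07) and knockout (0.5005 ± 0.0922), and Ctss, the protease that trims the invariant chain, in wild type (0.316 ± 0.1, 0.0184). Both glucocorticoids raised Lgmn, an asparagine endopeptidase, in both genotypes, by 0.423 and 0.588 in wild type. Of the 9, Cst3, Ctss and Ifi30 were higher in knockout with vehicle (0.350, 0.403 and 0.363), where 8.47% of all genes were, and Ifi30 was not called without the Arg1-high libraries (0.168, adjusted p = 0.214). March8, one of the ubiquitin ligases of this family, rose with both glucocorticoids in both genotypes, and Cd83, which opposes MARCH1, fell in all 4. March1, which sends class II to degradation, rose with IL4 in wild type (0.504 ± 0.140) and knockout (0.635 ± 0.130). It was higher in knockout with vehicle (0.400 ± 0.131, adjusted p = 0.0353), and its value without the Arg1-high libraries is not given here.

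The related classes of genes did not all follow the 8. H2-Ob, the β chain of the DM inhibitor DO, fell with IL4 in wild type (−1.12 ± 0.383, adjusted p = 0.0255) and knockout (−2.03 ± 0.454, 0.00094), and H2-Oa did not pass in either. Both genes rest on few reads. H2-Ob went from 0.795 ± 0.0999 to 0.366 ± 0.111 CPM in wild type and from 0.642 ± 0.279 to 0.159 ± 0.0607 CPM in knockout. H2-Oa had group means from 0.160 to 0.346 CPM. Of 14 class I genes, 7 rose and 0 fell with IL4 in wild type, where 14.8% of all genes rose and 15.3% fell, with a median of 0.214 against 2.14 for the 8 class II genes and −0.0121 for all genes. They included Psmb10, an immunoproteasome subunit (1.38 ± 0.139), and Tapbp, the loading chaperone tapasin (0.321 ± 0.0720). With vehicle 4 of the 14 were higher in knockout (Tapbp, Erap1, Psmb10 and Psmb9), against 8.47% of all genes. Without the Arg1-high libraries Tapbp and Erap1 stayed called and Psmb10 (adjusted p = 0.162) and Psmb9 (0.0561) did not. Of 7 costimulation genes, 3 rose and 2 fell with IL4 in wild type, beside the same shares of all genes. Pdcd1lg2, the ligand PD-L2, rose by 7.97 ± 1.18 and Cd274, the ligand PD-L1, by 2.005 ± 0.339, while Icosl fell by 2.74 ± 0.211 and Cd86 by 1.13 ± 0.204. Pdcd1lg2 was also higher in knockout than in wild type with vehicle (4.09 ± 1.19, adjusted p = 0.00197), but not without the Arg1-high libraries (1.42, adjusted p = 0.118).

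Markers of other class II-bearing cells were set beside these values. The 8 dendritic cell markers summed to 24.9 to 51.1 CPM in wild-type vehicle, 492 to 653 in wild-type IL4, 73.3 to 226 in knockout vehicle and 536 to 633 CPM in knockout IL4 libraries. Nearly all of this was Itgax, which macrophages make as well. Without Itgax the other 7 (Flt3, Zbtb46, Ccr7, Dpp4, Xcr1, Clec9a and Cd209a) summed to 4.44 to 9.34, 4.80 to 10.2, 1.48 to 2.01 and 2.31 to 4.17 CPM in those groups. In wild type Ccr7 carried most of this sum, at 4.95 ± 2.44 CPM with vehicle and 4.61 ± 2.24 with IL4. Zbtb46 was higher with IL4 without overlap, at 0.713 ± 0.172 and 1.91 ± 0.430 CPM in wild type and 0.635 ± 0.112 and 1.79 ± 0.0796 in knockout. Ccr7 in knockout was at 0.644 ± 0.167 and 1.20 ± 0.751 CPM, and the rest had means of 0.265 CPM or less. Itgax was higher in knockout with vehicle (2.14 ± 0.360, adjusted p = 0.000409), at 71.3 to 224 CPM against 20.4 to 41.7 CPM in wild type. Its value without the Arg1-high libraries is not given here. The part of these markers in the class II values was not tested. The 9 B cell markers summed to 21.0 to 76.6 CPM over the groups. Among them the defining genes Cd79a, Ms4a1 and Pax5 together reached at most 0.881 CPM in any library. Cd22, with group means from 19.1 to 56.5 CPM, rose with IL4 in wild type (1.07 ± 0.174, adjusted p = 4.59e-05) and knockout (0.812 ± 0.160, 0.000589). It was also higher in knockout with vehicle (0.490 ± 0.163, adjusted p = 0.0388). Cd79b fell with IL4 in both genotypes (−0.749 and −0.754), and Ebf1 (−2.97) and Ighm (−0.910) were lower in knockout with vehicle. The part of the B cell markers was not tested either. Of 5 T cell markers, Cd3d, Cd3e, Cd3g and Cd8a together reached at most 0.400 CPM, while the fifth, Cd4, which macrophages can make as well, had group means from 17.0 to 26.0 CPM.

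By profile over the 27 libraries, among 10086 genes with at least 5 CPM in some group, the genes most like Ciita outside the 8 were Mink1 (Pearson r 0.979), Ceacam19 (0.973), Plxnd1 (0.973), Mical1 (0.970), Hvcn1 (0.969), Anpep (0.961), Mapkapk3 (0.960) and Ak8 (0.959). Those most like H2-Ab1 were Timp2 (0.988), Colgalt1 (0.980), Atp6v0d2 (0.974), Mapkapk3 (0.973), Itgax (0.972), Itgb3 (0.968), Bhlhe40 (0.967) and Anxa4 (0.964). H2-Eb1 and H2-Aa were the first and second of all genes by likeness to H2-Ab1, and Ciita the 32nd. By likeness to Ciita, H2-Eb1 was only the 11th, H2-Ab1 the 15th and H2-Aa the 60th. The libraries fall into groups that differ in many genes. Within groups the r with Ciita was 0.645 for Mink1 and 0.553 for H2-Eb1, and that of Timp2 with H2-Ab1 was 0.895.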

How the data were processed

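The values were raw read counts per gene, deposited by the authors as 1 table of 29872 genes in 27 libraries. Per the labels, poly(A) RNA was made into libraries with a directional kit (NEBNext Ultra II) and sequenced as paired 50 bp reads. Per the submitters' processing notes, the tools were fastp 0.23.2, STAR 2.7.0, featureCounts (version not given) and edgeR 3.38.4, with the genome build mm10. Library totals were 20162729 to 48023102 counts, so that low genes such as Ciita in wild type rest on few reads.

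Genes were filtered with filterByExpr (minimum count 10), leaving 14589, and scaled by TMM. All 27 libraries entered 1 fit of 8 group means, and contrasts were tested by quasi-likelihood F tests (edgeR version 4.0.16 under R version 4.3.3, with the legacy and robust settings). P-values were adjusted by Benjamini-Hochberg over all 14589 genes, and a gene was called under 0.05. The biological coefficient of variation common to all genes was 0.122. Standard errors are Wald errors scaled by the quasi-dispersion, and 95% intervals follow from them. Exon lengths came from GENCODE vM21 (GRCm38) and promoters from RefSeq.

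The 8 genes and all other lists were chosen with earlier results of these data known. Named beside the 8 were up to 4 called genes of each list with the smallest adjusted p, genes introduced as background and the 8 genes most like Ciita and H2-Ab1. Not every gene this allows is printed. Some marker genes are not reported here and were left out of the marker sums. Alternatives were RLE scaling, no filter, DESeq2 1.42.0, edgeR's default fit, only the groups compared, the replicate block and leaving out each library. Added after seeing the data were leaving out the 4 libraries high in Arg1 and summing H2-DMb1 with H2-DMb2.

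The labels do not say what a replicate number shares. For libraries of the same number, deviations from the group mean were correlated at 0.279 to 0.713 for vehicle and IL4 in wild type, 0.279 to 0.674 for corticosterone and 0.244 to 0.640 for dexamethasone. In knockout the values were 0.115 to 0.280 for IL4 and 0.112 to 0.274 for corticosterone. All of these exceeded 0.1, which was taken as pairing.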

Additional observations from a re-analysis of the deposited data

How the results depend on the processing

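Of 1581 values of the 8 genes under the alternatives, 1510 stayed on the same side of the threshold, 39 lost a call and 32 gained one. None of the called values changed sign, and 57 values that were not called did. RLE scaling changed no count of called genes by over 1.5 times. With no filter on low counts, dexamethasone in wild type gave 0 and knockout against wild type with dexamethasone 1. edgeR's default fit gave 0 for corticosterone and 0 for dexamethasone in wild type and 1 for the difference in IL4 response. DESeq2 gave 3 for the difference in IL4 response and 1 for that in corticosterone response. With only the groups compared, dexamethasone in wild type gave 0, and knockout against wild type gave 1 with IL4 and 2 with corticosterone. With the replicate block the difference in IL4 response gave 4. Without the 4 libraries high in Arg1, dexamethasone in knockout gave 1 and knockout against wild type with dexamethasone 4. The cause of these changes was not tested. Calls among all genes changed between settings as well, as given below.

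Leaving out 1 library at a time gave 7 to 8 of the 8 genes for IL4 in each genotype, 0 to 1 for each glucocorticoid in wild type, 7 to 7 for corticosterone and 2 to 7 for dexamethasone in knockout. Knockout against wild type gave 7 to 7 with vehicle, 0 to 0 with IL4, 1 to 1 with corticosterone and 1 to 4 with dexamethasone. The differences in response gave 0 to 4 for IL4, 0 to 1 for corticosterone and 0 to 0 for dexamethasone.

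Over all genes, the block raised calls by over 1.5 times for corticosterone in wild type (866 to 1790), dexamethasone in wild type (1996 to 3225), corticosterone in knockout (1762 to 2974) and dexamethasone in knockout (2684 to 4056), and calls of a differing response rose from 4 to 149, 3 to 110 and 27 to 214. In knockout, same-numbered dexamethasone libraries passed the pairing check with corticosterone (correlations 0.259 to 0.310) and IL4 libraries (0.159 to 0.228). With vehicle libraries not all of them passed (0.00519 to 0.363), and across genotypes none did (−0.236 to 0.0342). In the comparisons that did not pass, the block is not read as pairing. There it added a call of H2-Aa with dexamethasone in knockout (−0.688, adjusted p = 0.00134) and of H2-Ab1 in knockout against wild type with dexamethasone (0.591, 0.0250). Other low counts came when only the groups compared were fitted, with 1745 of 3873 calls for IL4 in knockout, 1641 of 2738 for knockout against wild type with vehicle and 616 of 1802 with IL4. Depth limits Ciita most, at 14 to 61 reads in the wild-type groups without IL4.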
